A study of Mus musculus with 25 samples.

Results

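All 5xFAD mice were compared with all wild-type mice of the study, whatever they had been given, so that the effect of genotype could be read across treatments. Members were chosen by label alone: 15 libraries of 5xFAD brain (5 on vehicle, 5 on low P, 5 on high P) against 10 of wild-type brain (5 on vehicle, 5 on high P), which together are all 25 libraries of the series. The agent P is described only as derived from a natural product. Its identity, doses and duration are unstated in the labels, as are age, strain and brain region. 5xFAD mice carry human transgenes with familial Alzheimer mutations, amyloid precursor protein among them, under mouse Thy1 regulatory sequence, which is active mainly in neurons, so the model overproduces amyloid from neurons. No low P wild-type group was analysed here, and nothing in the labels says whether replicates of a group shared a litter or a day, so p-values measure the spread between these libraries.

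In this model amyloid plaques form in the brain and microglia gather around them. Signals through Trem2 and its adaptor Tyrobp are known to bring microglia into a plaque-associated state, in which genes for lipid handling, lysosomal digestion and antigen presentation are raised, and astrocytes near plaques raise Gfap, the intermediate filament of reactive astrocytes. Interferon-responsive microglia, complement deposition and loss of some neuronal transcripts are other known features of amyloid models.

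Of 54532 genes listed, 16450 reached 0.5 FPKM (fragments per kilobase of transcript, scaled to library depth) in at least 5 libraries and were tested. Differences are on the log2(FPKM + 0.5) scale, 5xFAD minus wild type, which understates the change of genes at low level. A gene is said to be called, or to have risen or fallen, at an adjusted p under 0.05 in limma. Between 15518358 and 17698222 reads per library were assigned to genes, and neither this depth (adjusted p = 0.548, two-sided permutation test over libraries, 3 measures), the share of mitochondrially encoded reads (0.806) nor the slope on GC content (0.806) was shown to differ by genotype. The wild-type groups themselves lay apart in that slope, at -0.15 ± 0.15 on vehicle and 0.17 ± 0.05 on high P (log2 per 10 points of GC, SD, n = 5 each). By Xist and Y-linked transcripts each group held 3 males and 2 females. Ttr, a choroid plexus transcript, was at over 5 times the median of all libraries in 5 libraries, called high-Ttr libraries below: 1 wild type on vehicle, 2 wild type on high P and 2 5xFAD on high P. Markers of cortical excitatory neurons were present in every library, with Slc17a7, the vesicular glutamate transporter, at 161 to 372 FPKM in 5xFAD and 124 to 306 in wild type.

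Thy1 checked the genotype labels, since the transgenes carry sequence of this gene. Whether its reads came from the gene itself or from the transgenes was not tested. Its level was 341, 479 and 670 FPKM as the lowest, median and highest of the 15 5xFAD libraries and 137, 177 and 196 of the 10 wild-type libraries. The genotypes did not overlap, and the log2 difference was 1.44 ± 0.09 (SE; adjusted p = 9.77e-12). App, the mouse amyloid precursor gene, ran from 123 to 160 FPKM in 5xFAD and from 138 to 154 in wild type and was not called (log2 difference -0.06, adjusted p = 0.542). Reads were aligned to the mouse genome, and the human transgene was not measured.

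More genes were higher than lower in 5xFAD. Over all libraries 641 genes rose (3.9% of those tested) and 184 fell (1.12%), while the median difference of all tested genes was -0.01. Rises were also larger: 311 reached 1.5-fold, 123 reached 2-fold and 16 reached 4-fold. Of the falls, 159 (86.4%) were under 1.5-fold and 6 reached 2-fold. Those 6 were not messenger RNAs: by the annotation they were 3 microRNA genes, 1 small nucleolar RNA, 1 small nuclear RNA and 1 long noncoding RNA. The libraries were made from poly-A RNA, in which such short RNAs are poorly represented, so these values are uncertain. In 162 genes (0.985% of those tested) all 15 5xFAD libraries lay above all 10 wild-type libraries, and in 2 genes (0.0122%) all lay below.

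Pooling the treatments called more genes than either matched comparison. On vehicle alone 510 genes were called (3.1%), of which 465 rose (2.83%) and 45 fell (0.274%), and on high P alone 246 rose (1.5%) and 42 fell (0.255%). The low P 5xFAD group, set against all wild-type libraries since it had no wild-type counterpart, had 395 genes higher (2.4%) and 123 lower (0.748%). Of the 641 genes that rose over all libraries, 432 were also called on vehicle and 186 were called in neither matched comparison. Of the 184 that fell, 27 were also called on vehicle and 126 in neither. In females alone (6 against 4 mice) 320 of the 641 rises and 15 of the 184 falls were called, and without the 5 high-Ttr libraries 495 and 45 were. Both sets hold fewer libraries, so a call lost there, here and below, need not mean a smaller difference. With the level of Ttr as a covariate over all 25 libraries, 613 of the rises and 154 of the falls were called. The typical standard error of a gene was 0.10 over all libraries and 0.15 within vehicle or high P.

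The vehicle and high P comparisons share no library, so each can be set against the other, although both take a gene's spread from all 25 libraries. Of the 465 genes that rose on vehicle, 449 had a positive difference on high P and 220 were called there, 47.3% of the vehicle list and 89.4% of the 246 that rose on high P. Calls of falls hardly carried over, while their direction did in part. Of 45 genes that fell on vehicle, 29 were negative on high P and 2 were called. Of 42 that fell on high P, 38 were negative on vehicle and 2 were called. Among all tested genes 49.6% were positive on high P and 46.1% on vehicle. Fold changes also followed GC content in opposite directions in the matched comparisons (Spearman's rho across genes 0.34 on vehicle and -0.34 on high P, given as a description since genes share libraries), against -0.10 over all libraries.

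**Figure D1:**
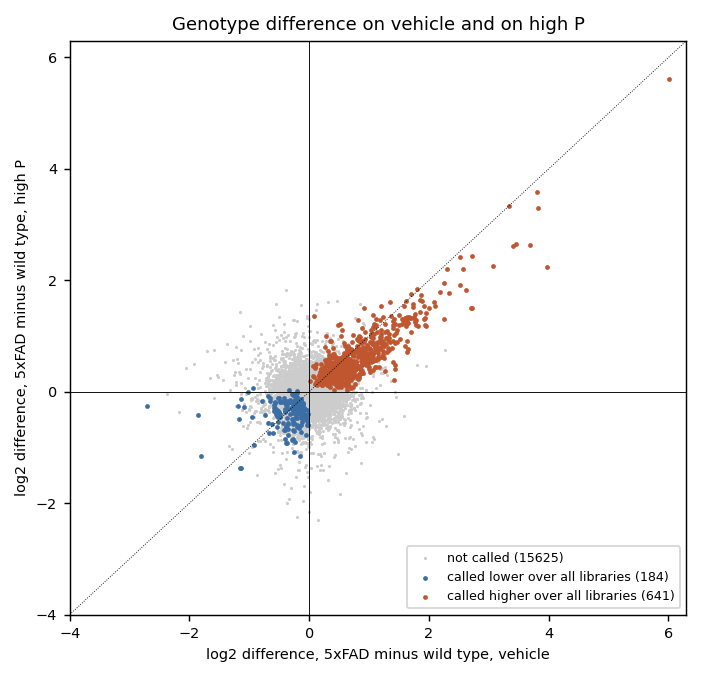
Each point is 1 of 16450 tested genes, with the log2 difference between 5xFAD and wild type on vehicle (x axis) and on high P (y axis). Colours mark the 641 genes higher and 184 lower over all libraries, which were chosen from the same libraries, and the dotted line marks equal differences. The rises form an arm near the dotted line and reach 6.01 on the x axis, while the falls stay close to the centre.

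No gene was called in the genotype by high P interaction, the test of whether the 2 differences differ (limma, 1138 genes at an unadjusted p under 0.05, and 0 called by voom on recovered reads). Among the 3 5xFAD groups no gene was called either (810 at an unadjusted p under 0.05, and 0 by voom), but 133 were called in females alone and 55 in males alone. High P against vehicle within wild type was not tested. Gfap had a difference of 3.69 on vehicle and 2.63 on high P, and its group means were 27.1 ± 7.26 FPKM in wild type on vehicle, 43.2 ± 9.43 in wild type on high P, and 354 ± 90.0, 297 ± 79.1 and 269 ± 50.2 in 5xFAD on vehicle, low P and high P (SD, n = 5). The interaction for Gfap was -1.05 (adjusted p = 0.71).

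Microglial receptors and their adaptors were mostly higher. Of 44 tested members 37 rose and none fell, and the median difference was 1.02, against -0.01 for all tested genes. Trem2, the lipid-sensing receptor, had 9.18, 12.2 and 17.1 FPKM as lowest, median and highest in 5xFAD and 1.59, 2.39 and 3.82 in wild type. Its partner Tyrobp had 16.5, 33.6 and 61 FPKM in 5xFAD and 3.73, 7.33 and 8.71 in wild type. Neither gene overlapped between genotypes, and the differences were 2.13 ± 0.11 and 2.27 ± 0.14 (adjusted p = 4.76e-13 and 1.06e-11).

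Receptors for fungal or complement-coated particles had the largest rises named in this group. Clec7a, the beta-glucan receptor Dectin-1, ran from 4.06 to 12.1 FPKM in 5xFAD and from 0 to 0.709 in wild type (difference 3.68 ± 0.15). Itgax, an integrin subunit of complement receptor 4, ran from 3.33 to 11.9 FPKM against 0.0123 to 0.173 (3.49 ± 0.13). Fcgr3 and Fcgr2b, an activating and an inhibitory Fc receptor, rose by 1.39 and 1.66 on the log2 scale. Signalling genes downstream moved less, with Plcg2, a phospholipase, at 0.62 ± 0.09 and Inpp5d, an inositol phosphatase, at 0.63 ± 0.07. Syk, the kinase that Tyrobp recruits, was not called (0.29, adjusted p = 0.105), nor was Mertk, a receptor for dying cells (0.04, adjusted p = 0.857), whereas its relative Axl rose (0.46, adjusted p = 3.26e-05).

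Effectors of plaque-associated microglia held the largest rise of the data set. Of 41 tested members 35 rose, none fell, and the median difference was 1.11. Cst7, which encodes the endolysosomal protease inhibitor cystatin F, had 23.1, 46.7 and 78.2 FPKM in 5xFAD and 0, 0.418 and 0.857 in wild type, a ratio of means of 116 and a log2 difference of 5.69 ± 0.17. It was 6.01 on vehicle and 5.62 on high P. Ccl3, a chemokine, ran from 4.10 to 13.4 FPKM in 5xFAD and from 0 to 0.622 in wild type. Gpnmb, a glycoprotein of lipid-laden phagocytes, rose by 2.62 ± 0.25 and spread widely in 5xFAD, from 1.56 to 15.2 FPKM.

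Apoe, the main brain lipoprotein and a member of that list, was among the 6 not called. It ran from 310 to 792 FPKM in 5xFAD and from 177 to 763 in wild type, and was not called over all libraries (0.49, adjusted p = 0.112), though it was after GC correction (0.54, adjusted p = 0.0016). On vehicle it was called (1.06, adjusted p = 0.0219) and on high P its difference was 0.00. The wild-type means were 269 ± 94.2 FPKM on vehicle and 579 ± 118 on high P, and the 3 5xFAD means lay between 548 and 582.

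Homeostatic microglial genes rose in part. Of 26 tested, 13 rose and none fell, with a median of 0.42. Cx3cr1, the fractalkine receptor, ran from 18.5 to 31.9 FPKM in 5xFAD and from 9.64 to 15.4 in wild type, without overlap (1.07 ± 0.09). P2ry12, the ADP receptor of surveying microglia, overlapped between genotypes, at 12.9 to 30 against 10.9 to 18.4 FPKM, and rose by 0.50 ± 0.11 (adjusted p = 0.00313, not called in males alone, 0.0838). Tmem119 was not called (0.21, adjusted p = 0.425). Crybb1 had the lowest value of the list, -0.59, and was not called (adjusted p = 0.0593), but it was called lower after GC correction (-0.52, adjusted p = 0.00771) and with the mean level of striatal markers as a covariate (-0.73, adjusted p = 0.0171). In bulk tissue, more microglia and more RNA per microglial cell cannot be told apart.

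Markers of blood leukocytes and border macrophages gave little beside these rises. Only 8 of 33 leukocyte and 8 of 16 border macrophage markers reached the level needed for testing. Of 8 tested leukocyte markers none was called (1 at an unadjusted p under 0.05, 0 by voom), and their summed level was 20.2 to 52.8 FPKM in 5xFAD and 9.69 to 46.1 in wild type. Of 8 tested border macrophage markers, Dab2 rose (0.41, adjusted p = 0.042), a call lost on leaving out any 1 of 14 libraries. The defining markers Mrc1 and Cd163 were at medians of 0.537 and 0.601 FPKM in 5xFAD.

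**Figure D2:**
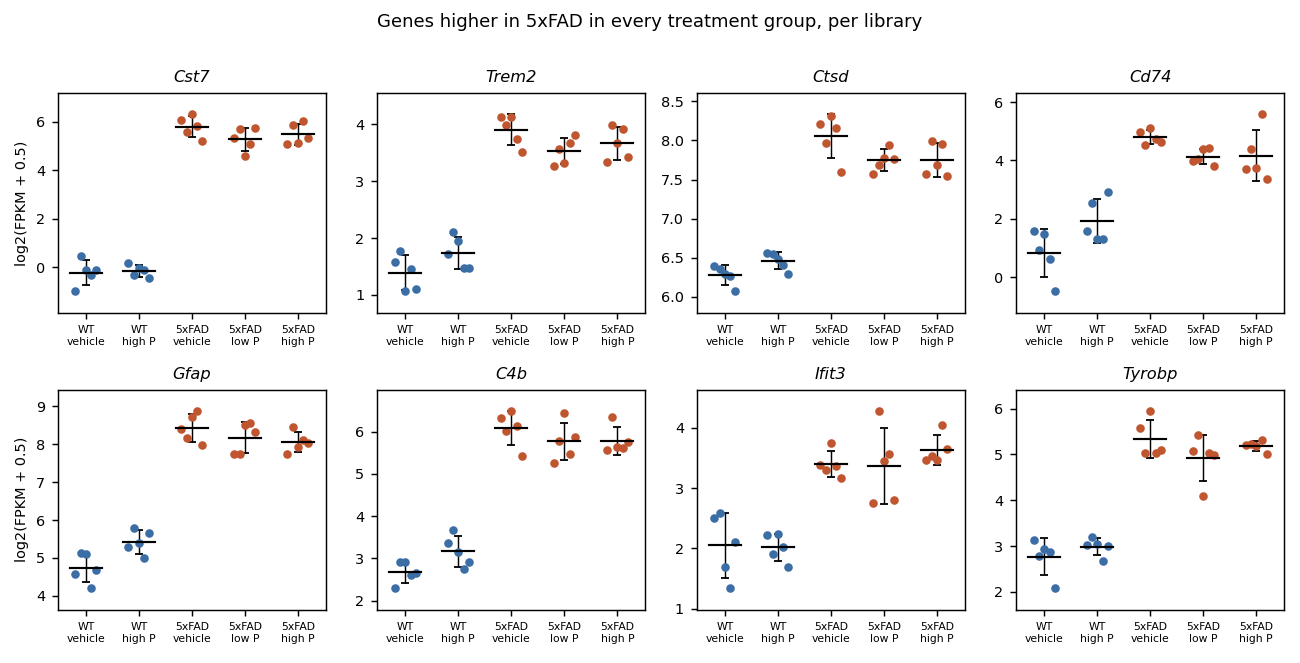
Each point is 1 library, on the log2(FPKM + 0.5) scale, for 8 genes in the 5 groups, with the mean and SD of each group of 5 in black. In each panel the 15 5xFAD libraries (orange) lie above the 10 wild-type libraries (blue), and the 3 5xFAD groups overlap.

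Transcription factors of microglia shared in the rise to a lesser degree: 12 of 27 tested rose, none fell, and the median was 0.26. Irf8 and Spi1, which specify the lineage, rose by 1.18 ± 0.11 and 0.99 ± 0.13, and Cebpa by 1.00 ± 0.10. Spi1, which encodes PU.1, ran from 1.97 to 4.53 FPKM in 5xFAD and from 0.702 to 1.85 in wild type, without overlap. Stat3, which reactive astrocytes also use, rose by 0.48 ± 0.06. The canonical NF-kappa-B subunit Nfkb1 was at 0.16 and not called.

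Complement genes rose at the head of the classical pathway. Of 22 tested, 11 rose and none fell. C1qa, C1qb and C1qc, the chains of the recognition molecule, rose by 1.75, 1.43 and 1.52, and C4b, the next component cleaved, rose by 2.95 ± 0.14 from 4.41 to 12.3 FPKM in wild type to 38 to 88.8 in 5xFAD. C4b has a near-identical neighbour, C4a, and reads could be split between them. C3, the central component, rose by 0.87 at a low level, with medians of 0.85 and 0.232 FPKM. C3ar1 and C5ar1, receptors for the released peptides, rose by 1.41 and 0.54. The proteases C1ra (0.14) and C1s1 (0.13) were not called, and the synaptic complement inhibitors Csmd1 (-0.03) and Csmd2 (-0.02) were close to 0.

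Antigen presentation rose through both pathways. Of 12 class II genes 10 rose, with a median of 0.86. Cd74, the invariant chain, had 9.92, 20.6 and 47.3 FPKM in 5xFAD and 0.215, 2.14 and 7.05 in wild type (2.98 ± 0.25), and H2-Aa and H2-Ab1, the class II chains, rose by 1.99 and 1.92 with overlapping libraries. Of 23 class I genes 11 rose, with a median of 0.41. B2m, the shared light chain, rose by 1.05 ± 0.10, from 76.0 to 137 FPKM in wild type to 150 to 298 in 5xFAD. H2-K1 and H2-D1 rose by 1.00 and 1.17, but these heavy chains are alike in sequence and their reads are hard to assign. Peptide loading genes moved less: Tap1 rose by 0.53, and the chaperones Canx (0.10), Pdia3 (0.08) and Calr (-0.01) were not called. Tap1 was not called in males alone (adjusted p = 0.0501) or in females alone (0.306).

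Genes of the interferon response formed a broad group of moderate rises. Of 50 tested, 38 rose, none fell, and the median was 0.53. Ifit3, which restrains viral RNA translation with its relatives, had 6.20, 10.5 and 18.8 FPKM in 5xFAD and 2.03, 3.70 and 5.53 in wild type, without overlap (1.43 ± 0.16, adjusted p = 4.35e-07). Ifit1 rose by 1.36, Oasl2 by 1.26 and Bst2, which tethers budding virions, by 1.23. Isg15, a ubiquitin-like modifier, rose by 0.99 ± 0.19 with overlap, from 0.388 to 2.54 FPKM in wild type to 0.693 to 4.38 in 5xFAD. The median of the list was 0.66 on vehicle and 0.59 on high P. Of the transducing factors, Irf9 (0.71) and Stat2 (0.34) rose, and Irf7 (0.51, adjusted p = 0.0566) was not called, though it was after GC correction (0.0152) and with the replicate block (0.0411).

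The promoters of these genes are shown as a description. The list was written from genes known to answer interferon, so a high share of the element in it is no result of these mice. The interferon-stimulated response element, searched as GAAA, any 2 bases and GAAA on both strands of RefSeq windows of 250 bases before to 50 after the start (GRCm38.p6), was found in 22 of the 40 interferon genes with a window (55%), against 3.99% of all 27025 genes with a window. Of those 22 genes 19 rose (median difference 0.80), and of the 18 without these letters 10 rose (0.37). The 18 include the interferon receptor genes Ifnar1, Ifnar2, Ifngr1 and Ifngr2, of which only Ifnar2 rose, so the split is a description. Other motifs searched, namely GAGGAAGT of PU.1, TGACGTCA of the cyclic AMP response element, TCACNCCAC of the sterol response element, TCACGTGA of lysosomal genes and the CArG box, were in none of the 40 windows. Below are bases upstream of the start, 5′ to 3′, with the response element in capitals. Isg15 (minus strand, chr4:156200819-156200968) holds 3 overlapping matches that begin 78 bases before the start, Ifit3 (plus strand, chr19:34583329-34583528) and Ifit1 (plus strand, chr19:34640739-34640888) hold 2 each on the opposite strand, and Gbp2 (plus strand, chr3:142620513-142620662), a guanylate-binding protein that rose by 0.77, holds 1.
Isg15: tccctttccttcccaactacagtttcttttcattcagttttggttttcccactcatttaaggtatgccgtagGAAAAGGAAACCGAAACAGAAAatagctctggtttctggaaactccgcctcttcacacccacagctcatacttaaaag
Ifit3: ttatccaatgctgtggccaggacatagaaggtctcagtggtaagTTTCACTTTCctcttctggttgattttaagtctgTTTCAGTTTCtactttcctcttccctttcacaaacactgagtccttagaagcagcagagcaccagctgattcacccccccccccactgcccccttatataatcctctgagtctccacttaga
Ifit1: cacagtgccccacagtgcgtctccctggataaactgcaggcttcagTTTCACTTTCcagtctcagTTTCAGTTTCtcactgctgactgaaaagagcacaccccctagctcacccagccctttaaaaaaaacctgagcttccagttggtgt
Gbp2: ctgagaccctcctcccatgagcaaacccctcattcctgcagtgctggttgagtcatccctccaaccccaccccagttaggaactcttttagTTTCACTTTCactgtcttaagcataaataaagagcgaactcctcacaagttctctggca

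The PU.1 letters GAGGAAGT were in 7 of the 36 microglial receptor genes with a window (19.4%), against 3.69% of all windows, and 6 of the 7 rose (median difference 0.66). Of the 29 without these letters 24 rose, with a larger median (1.03). Inpp5d (plus strand, chr1:87620212-87620311) and Tlr1 (minus strand, chr5:64933559-64933658), a receptor for bacterial lipopeptides that rose by 0.66, hold them close to the start. A match is a description of letters and no evidence of binding.
Inpp5d: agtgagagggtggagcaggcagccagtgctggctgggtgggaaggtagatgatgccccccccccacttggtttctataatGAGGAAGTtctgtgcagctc
Tlr1: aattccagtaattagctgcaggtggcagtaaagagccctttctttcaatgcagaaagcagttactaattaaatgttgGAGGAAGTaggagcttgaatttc

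Chemokines and cytokine receptors rose unevenly. Of 40 tested members of the cytokine, chemokine and inflammasome list 22 rose and 1 fell. Ccl6 (2.59), Ccl4 (2.00) and Cxcl10 (1.31), which draw myeloid cells and T cells, rose most after Ccl3, and Ccl4 had a median of 0 in wild type. The ligand Tgfb1, transforming growth factor beta, rose by 0.89 ± 0.12 and its receptors Tgfbr1 and Tgfbr2 by 0.71 ± 0.08 and 0.92 ± 0.06. Csf1, the ligand of the microglial survival receptor, rose by 1.08. Inflammasome genes were modest and low: Nlrp3, the sensor, rose by 0.46 with medians of 0.571 and 0.259 FPKM, Pycard, the adaptor, by 0.76, and Casp1 (0.32) and Il18 (-0.20) were not called. The 1 fall was the neuronal chemokine Cx3cl1, from 156 to 227 FPKM in wild type to 144 to 186 in 5xFAD (-0.23 ± 0.05, adjusted p = 0.00702), the ligand of Cx3cr1. It was not called without the high-Ttr libraries (adjusted p = 0.135).

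Phagocyte machinery rose in 23 of 34 tested genes, with none lower. The oxidase subunits Cyba and Cybb rose by 1.62 and 1.11 and Ncf1 by 1.07. Haematopoietic regulators of actin also rose, among them Plek (1.55), Vav1 (1.02) and Nckap1l (0.89), while Rac1 (-0.03) and Elmo1 (-0.20), which all brain cells express, were not called.

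Lysosomal genes held both large and small rises. Of 72 tested, 35 rose, none fell, and 62 differences were positive, with a median of 0.23 over all 72, called or not. Cd68, a macrophage glycoprotein of the lysosomal membrane, had the largest rise of the list (2.20). Among proteases Ctsd rose by 1.48 ± 0.08, from 66.7 to 94.2 FPKM in wild type to 186 to 319 in 5xFAD, Ctss by 1.56 and Ctsz by 1.44. Grn, which encodes progranulin, rose by 1.00 ± 0.09, and the glycosidases Gusb and Hexa by 1.12 and 0.92. Membrane proteins moved less, with Lamp1 at 0.27 ± 0.05 and Lamp2 at 0.47. Atp6v0d2, a proton pump subunit of phagocytes, was listed at 0 in all 10 wild-type libraries and at 0.252 to 1.48 FPKM in 5xFAD. Npc1, a cholesterol exporter, was not called (0.06, adjusted p = 0.816), whereas its soluble partner Npc2 rose by 0.67. Tfeb, the regulator of lysosome genes, was not called either (0.10).

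Autophagy genes held no call: none of 38 tested passed in limma (2 at an unadjusted p under 0.05, 0 called by voom), against 5.02% of all tested genes, and the median was -0.01. After GC correction 1 was called, Atg12, a ubiquitin-like conjugation protein (-0.21, adjusted p = 0.0227). Sqstm1, the cargo receptor p62, ran from 97.8 to 147 FPKM in 5xFAD and from 92.3 to 134 in wild type (0.09, adjusted p = 0.554), and Map1lc3b was at -0.10 (adjusted p = 0.46).

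Genes under 1.5-fold made up 330 of the 641 rises (51.5%), and several did not overlap between genotypes. Creg1, a secreted glycoprotein of the endolysosome, had 13.8, 17.3 and 19.3 FPKM in 5xFAD and 10.8, 12.4 and 13 in wild type, a ratio of means of 1.41 (0.48 ± 0.04, adjusted p = 6.95e-09). Lgmn, an asparaginyl endopeptidase, had 48.8, 55.6 and 67.1 FPKM against 36.6, 41.4 and 42.9 (0.46 ± 0.05). Ctsb, a cathepsin, had 106, 125 and 157 FPKM against 69, 90.2 and 102 (0.53 ± 0.06). In all 3 genes the lowest 5xFAD library was above the highest wild-type library.

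Other small rises fell outside proteolysis. Sgpl1, the lyase that ends sphingosine phosphate, rose by 0.53 ± 0.06 without overlap. Scamp2, a secretory carrier membrane protein, rose by 0.44, and Cndp2, a cytosolic dipeptidase, by 0.41. Tspan4, a tetraspanin, rose by 0.58, with overlap. Cndp2 and the factor Stat3 were not called on high P alone (adjusted p = 0.128 and 0.0518).

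**Figure D3:**
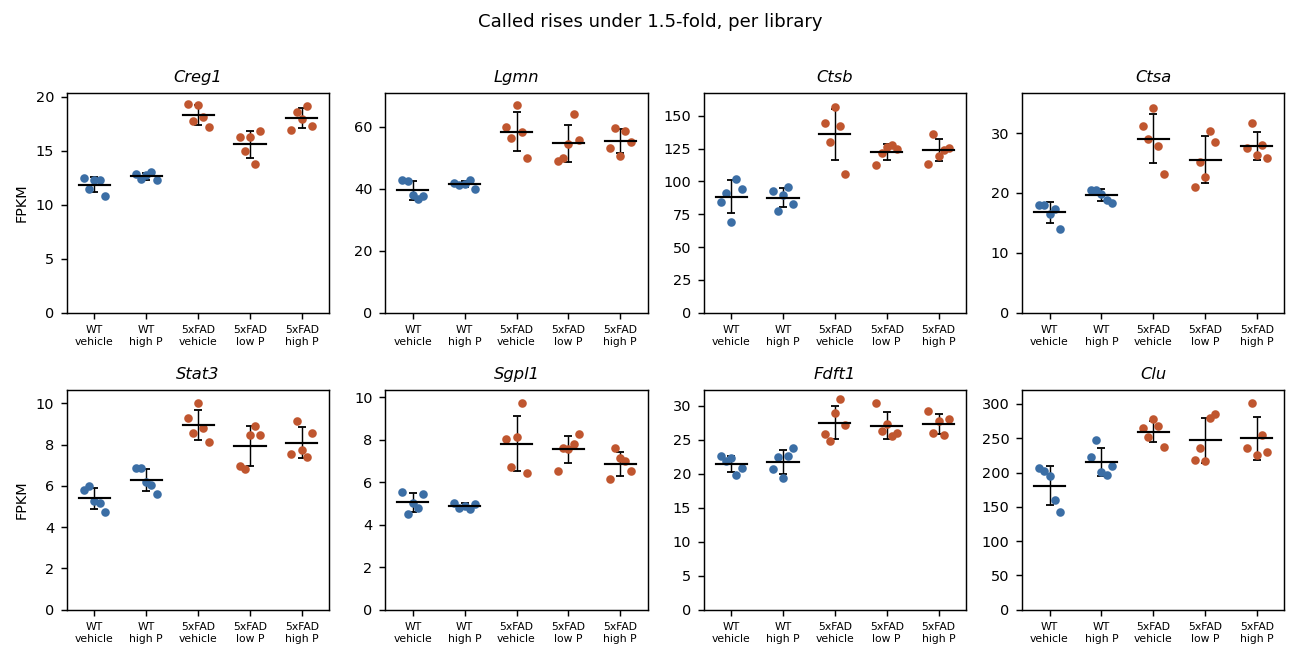
Each point is 1 library, in FPKM from 0, for 8 genes called higher with a change under 1.5-fold, in the 5 groups, with the mean and SD of each group of 5 in black. For Creg1, Lgmn, Ctsb, Ctsa, Sgpl1 and Fdft1 the 5xFAD libraries (orange) do not reach down to the wild-type libraries (blue), while Stat3 and Clu overlap slightly.

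Sterol synthesis rose in part. Of 41 tested genes 11 rose, none fell and 34 were positive, with a median of 0.16. Fdft1, squalene synthase, had 24.8, 27.3 and 31 FPKM in 5xFAD and 19.3, 22.1 and 23.7 in wild type, without overlap (0.33 ± 0.05, adjusted p = 2.21e-05). Sqle (0.39), Nsdhl (0.41), Hsd17b7 (0.44) and Hmgcs1 (0.37), further enzymes of the route, rose with overlapping libraries. Without the 5 high-Ttr libraries 7 genes of the list were called, and Hmgcs1 was not (adjusted p = 0.0899).

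Lipid transport genes rose in 8 of 35, with a median of 0.09 (0.17 on vehicle and -0.01 on high P, with 7 and 3 called higher). Ch25h, which makes 25-hydroxycholesterol, rose by 1.12 ± 0.14, from 0.0419 to 0.67 FPKM in wild type to 0.67 to 1.99 in 5xFAD. Lpl, lipoprotein lipase, rose by 0.77, Abca1, the lipid exporter, by 0.37 and Clu, the carrier also called apolipoprotein J, by 0.35 ± 0.07. In males alone Abca1 (0.32, adjusted p = 0.0595) and Clu (0.22, adjusted p = 0.104) were not called.

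Reactive astrocyte genes rose in 14 of 29, with none lower and a median of 0.43. Gfap had 213, 288 and 469 FPKM in 5xFAD and 17.9, 34.5 and 55.3 in wild type, a ratio of means of 8.73 (3.14 ± 0.14). Serpina3n, a secreted protease inhibitor, had 27.2, 54.8 and 98.3 FPKM against 4.30, 6.08 and 6.87 (3.08 ± 0.17). Vim rose by 1.25 and Osmr, the oncostatin receptor, by 0.97. Other members of the list were near 0, such as Nes (0.20), Cp (0.13) and Amigo2 (-0.12), none of them called.

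General astrocyte genes did not follow. Of 30 tested, Aqp4 rose and 4 fell, and their summed level was 1461 to 1850 FPKM in 5xFAD and 1526 to 1903 in wild type. Aqp4, the water channel of endfeet, had 20.1, 34 and 56.4 FPKM in 5xFAD and 14.7, 21.2 and 28.7 in wild type (0.72 ± 0.13, adjusted p = 0.000767). It was not called in males alone (0.48, adjusted p = 0.0561). Gpc5, a heparan sulfate proteoglycan, fell by 0.35 and Mfge8, an opsonin for dying cells, by 0.43. Fgfr3 and Slco1c1, the thyroxine transporter, fell by 0.33 and 0.30, calls that were lost on leaving out any 1 of 8 and of 17 libraries. The glutamate transporter Slc1a2 was not called (-0.04, adjusted p = 0.838). None of the 4 falls was called without the high-Ttr libraries.

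Oligodendrocyte genes rose in 5 of 29 tested and fell in none. C4b, counted above, was 1 of them. Gsn, an actin-severing protein, rose by 0.63 ± 0.12, and Trf, Cldn11 and Apod by 0.71, 0.55 and 0.62, each lost on leaving out any 1 of 14 or 15 libraries and without the 5 high-Ttr libraries. The myelin genes Mbp (0.01) and Mog (0.27) were not called, and neither was any of 20 precursor genes (2 at an unadjusted p under 0.05, 0 by voom) or of 32 endothelial and mural genes (4 and 0).

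Falls were fewer, smaller and less stable. Zfp365, which had the smallest p among them, is described first. This gene for a zinc finger protein of neurons had 97.7, 112 and 120 FPKM in 5xFAD and 132, 147 and 155 in wild type. All 15 5xFAD libraries were below all 10 wild-type libraries, with a difference of -0.40 ± 0.04 (adjusted p = 5.71e-08), -0.41 on vehicle and -0.30 on high P. Kirrel2, an adhesion molecule of the immunoglobulin family, was the other fall without overlap, at 0.807 to 1.74 FPKM against 1.77 to 3.15 (-0.62 ± 0.09, adjusted p = 3.02e-05, not called in females alone, 0.0769). Both were called on vehicle and on high P separately. Those libraries are among the ones seen not to overlap, and both calls use the same estimate of spread, so they add no separate support.

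Only 4 falls stayed called under all alternative settings run, and all 4 are shown here. Besides Zfp365 they were Rpe65, Fosb and Shisa2. Rpe65, the retinoid isomerase of the visual cycle, had 0.332, 0.72 and 2.02 FPKM in 5xFAD and 1.11, 2.04 and 3.17 in wild type, with overlap (-0.92 ± 0.16). Its wild-type means were 2.57 ± 0.44 on vehicle and 1.64 ± 0.428 on high P. Shisa2, a modulator of Wnt and fibroblast growth factor receptors, was at 0.457 to 1.33 FPKM against 0.924 to 2.27 (-0.58 ± 0.12).

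Activity-regulated genes were the largest group of falls by list. Of 39 tested, 7 fell and 1 rose, and 3 of the differences were positive, with a median of -0.36. Fosb, a subunit of AP-1, had 1.88, 2.58 and 3.24 FPKM in 5xFAD and 3.18, 4.14 and 5.24 in wild type, with the groups overlapping only at their edges (-0.59 ± 0.09, adjusted p = 4.96e-05). Egr4, a zinc finger factor, had 9.48, 19.7 and 29.6 FPKM against 19.3, 34.1 and 55.9 (-0.77 ± 0.16). Egr3 (-0.43), the pentraxin Nptx2 (-0.54), Klf2 (-0.57), Apold1 (-0.60) and Sik1 (-0.47) also fell, the last 2 with calls lost on leaving out any 1 of 11 and of 20 libraries. Fos (-0.78, adjusted p = 0.0799), Arc (-0.84, adjusted p = 0.175) and Egr1 (-0.54, adjusted p = 0.0865), the best known members, were lower on average and varied too widely to be called, Arc from 15.6 to 84.2 FPKM in 5xFAD and from 27.3 to 202 in wild type. Atf3, which injury induces in many cells, rose by 0.93 ± 0.14. Without the high-Ttr libraries Fosb (adjusted p = 0.00318) was the only 1 of these 7 still called, with Egr4 at 0.0585, Egr3 at 0.0741, Nptx2 at 0.116 and Klf2 at 0.159. Fos (0.0391), Dusp1 (0.0257) and Btg2 (0.0412), feedback and growth regulators induced alongside it, were called there instead, and these were named after their values were seen.

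Inhibitory neuron genes and neuropeptides were lower as a list. Of 40 tested, 4 fell, none rose and 9 differences were positive, and the summed level of the list was 947 to 1269 FPKM in 5xFAD and 1259 to 1568 in wild type. The sum is weighted to abundant members. The list includes Penk, Pdyn and Tac1, which striatal neurons also express, and the part of striatal content in the sum was not tested. The lowest difference of the list, -1.14, was not called. Sst, the neuropeptide somatostatin, had 71.4, 169 and 208 FPKM in 5xFAD and 144, 249 and 299 in wild type (-0.58 ± 0.15, adjusted p = 0.0174). Slc32a1, the vesicular GABA transporter, had 29.1, 40.1 and 57.1 FPKM against 39.3, 52.1 and 80.9 (-0.46 ± 0.10). Dlx5 and Lhx6, transcription factors of the lineage, fell by 0.51 and 0.20. None of the 4 was called in females alone, where Sst was at -0.23 (adjusted p = 0.443) and Slc32a1 at -0.43 (0.0769). Gad1 and Gad2, which make GABA, were not called (-0.24 and -0.28), nor were Pvalb (0.05), Vip (-0.04) or Npy (-0.27).

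Somatostatin transcription is known to follow the cyclic AMP response element upstream of its start, so those bases are shown (minus strand, chr16:23890845-23890944), with the element 48 bases before the start in capitals. These letters were in 2.03% of all windows and 3.54% of the windows of tested genes. Whether the element had any part in the fall of Sst was not tested, and a match is no evidence of binding.
Sst: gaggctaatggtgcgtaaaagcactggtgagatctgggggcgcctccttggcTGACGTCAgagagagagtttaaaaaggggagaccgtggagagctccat

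Striatal markers were lower beside these falls, and their part in them was not tested beyond the values given here. All 17 tested were lower in 5xFAD (median -0.75; -0.03 on vehicle and -1.37 on high P), none was called (8 at an unadjusted p under 0.05, 0 by voom), and their summed level was 129 to 942 FPKM in 5xFAD and 260 to 1676 in wild type. Drd2, a dopamine receptor of striatal projection neurons, ran from 0.526 to 39.1 FPKM in 5xFAD and from 5.47 to 97.8 in wild type. With the mean level of these markers as a covariate, Sst (-0.68, adjusted p = 0.00648), Slc32a1 (-0.30, adjusted p = 0.0165), Lhx6 and Fosb (-0.58) were still called and Dlx5 (adjusted p = 0.0663) was not. Without the 5 high-Ttr libraries none of the 4 inhibitory neuron falls was called (Sst adjusted p = 0.232, Slc32a1 0.165), and Slc32a1 and Lhx6 were not called after GC correction (adjusted p = 0.123 and 0.119). On vehicle, where the striatal median was near 0, Slc32a1 was at -0.06 and Sst at -0.39, neither called.

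**Figure D4:**
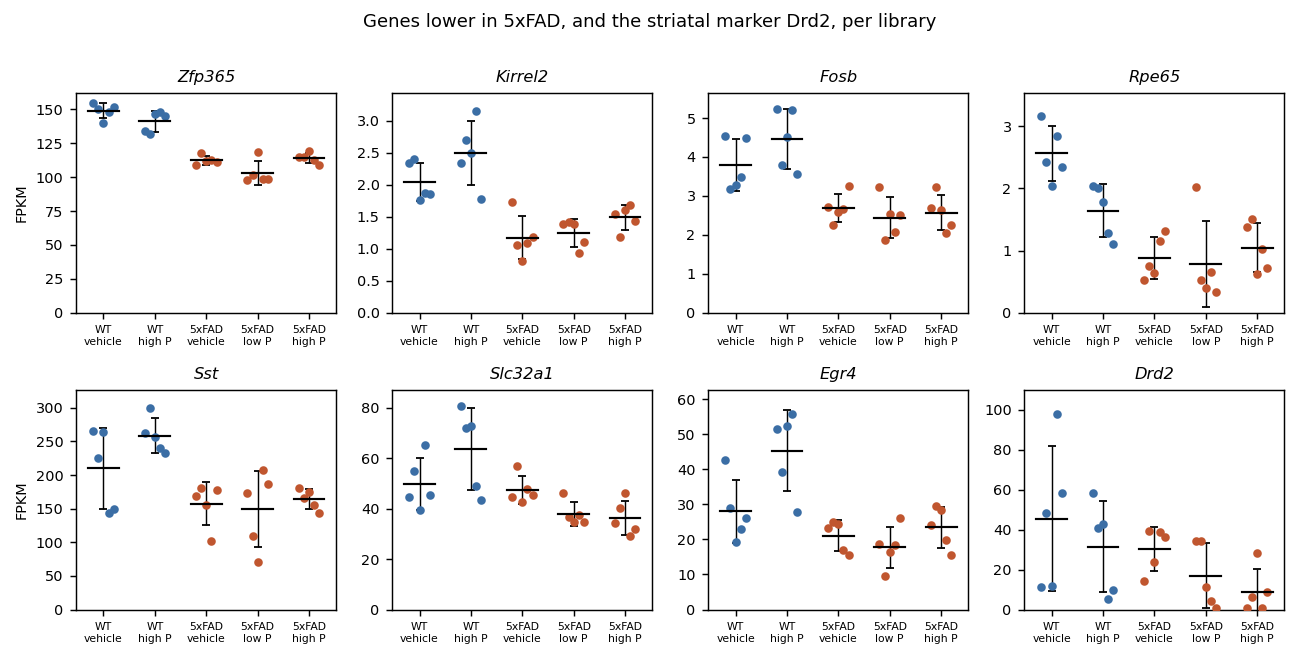
Each point is 1 library, in FPKM from 0, for 7 genes called lower in 5xFAD and the striatal marker Drd2, in the 5 groups, with the mean and SD of each group of 5 in black. Zfp365 and Kirrel2 separate the 5xFAD libraries (orange) from the wild-type libraries (blue), the other 5 called genes overlap, and Drd2 varies from near 0 to 97.8 FPKM within and between groups.

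Further falls of the largest size were Nrarp (-0.79), a feedback inhibitor of Notch, Arl4d (-0.73), a small GTPase, Tmem158 (-0.71), Adra2c (-0.63), an adrenergic receptor that striatal neurons also express, Sp9 (-0.62), Gdf10 (-0.56) and Ppp1r3g (-0.56). None of them was separated between genotypes. Tmem158 (adjusted p = 0.165), Arl4d (0.0891), Adra2c (0.104), Ppp1r3g (0.0553) and Sp9 (0.501) were not called without the high-Ttr libraries, nor were Sp9 with the striatal covariate (0.0925) and Tmem158 after GC correction (0.0714). Small falls included Phactr3 (-0.31), a phosphatase regulator, Npas2 (-0.33), a partner of the clock gene Arntl, the Notch target Hey1 (-0.26), Cdk5r1 (-0.23), the p35 activator of Cdk5, and Fbxl16 (-0.32), at 281 to 405 FPKM in 5xFAD and 369 to 536 in wild type. Cdk5r1 (adjusted p = 0.068) and Fbxl16 (0.0647) were not called without the high-Ttr libraries either.

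Of all tested genes 5.02% were called and 1.12% fell, so short lists at that share would hold few calls. None of 33 excitatory markers was called in limma (median 0.01, 4 at an unadjusted p under 0.05, 0 called by voom). Of 56 synaptic genes 1, Nptx2, fell (1.79%). Camk2a (-0.08), Syn1 (-0.08), Dlg4 (-0.18), Snap25 (0.01) and Grin1 (-0.09) were not called, with adjusted p-values from 0.17 to 0.985. The p-values do not show that these genes were equal between genotypes. The lowest of the synaptic differences, -0.84, was not called. In simulated data of this size 88% of 1.5-fold changes were recovered, but only genes with many reads were changed there. Spread was also drawn separately for each gene, without differences that libraries share, so that share cannot be carried over to these lists.

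Of 31 tested genes of amyloid processing and clearance 2 rose (6.45%, against 3.9% of all tested genes) and none fell. They were A2m, a protease inhibitor, at 1.28 ± 0.13 and Clu at 0.35. Processing of the precursor protein was not measured. After GC correction 5 genes of the list rose and 1 fell. Bace1 (0.09) and Ide (-0.08), which cut the precursor or its product, were not called, and Mme, which encodes the amyloid-degrading enzyme neprilysin, was at -0.79 with overlapping libraries (adjusted p = 0.19).

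Stress responses were mixed and small. Members rose at 12.5% in the antioxidant list, 21.1% in iron handling and 6.67% in the unfolded protein list, against 3.9% of all tested genes. They fell at 2.5%, 5.26% and 3.33%, against 1.12%. The share that rose was 1.89% in nuclear oxidative phosphorylation and 16.7% in cytosolic ribosomal protein genes. In the antioxidant list 5 of 40 rose, among them Hmox1 (0.95 ± 0.12), haem oxygenase, Nfe2l2 (0.48), its regulator, and Prdx6 (0.45), while Gstm5 fell by 0.39 and Nqo1 was not called (0.16). In iron handling 4 of 19 rose, with Slc11a1, a phagosomal metal transporter, at 1.62 and Tfrc, the transferrin receptor, at 0.48, while Heph fell by 0.38 (not called without the high-Ttr libraries, adjusted p = 0.109) and the ferritins Fth1 (0.17) and Ftl1 (0.20) were not called, though Ftl1 was after GC correction (adjusted p = 0.00485). Of 30 genes of the unfolded protein and integrated stress response, Atf3 and Edem1 rose and Ddit4 fell (not called without the high-Ttr libraries, adjusted p = 0.195), with Hspa5 at -0.07. No mitochondrially encoded gene of 13 (2 at an unadjusted p under 0.05, 0 by voom) and 1 of 53 nuclear oxidative phosphorylation genes, Ndufa3, was called. The Ndufa3 call was lost on leaving out any 1 of 10 libraries, without the high-Ttr libraries (adjusted p = 0.0628) and by voom (0.0542). Of 48 cytosolic ribosomal protein genes 8 rose, from Rpl19 (0.20) to Rps28 (0.62), and 43 were positive. None was called on vehicle or on high P alone, and the calls of Rpl19 and Rps28 were lost on leaving out any 1 of 6 and of 4 libraries. Several of these have near-identical copies elsewhere in the genome, so their counts are uncertain.

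**Figure D5:**
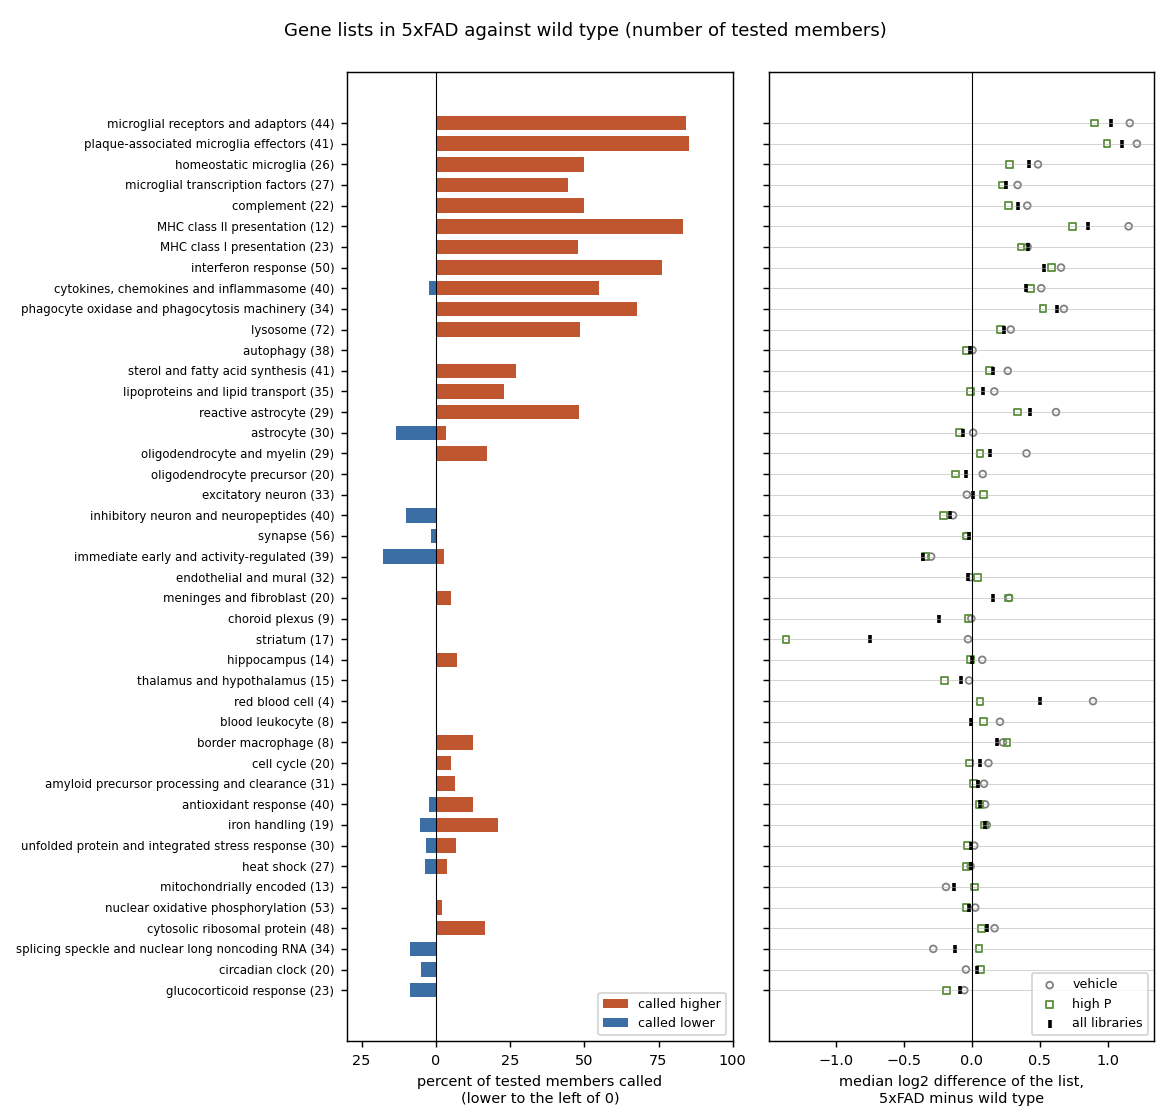
For 43 gene lists, with the number of tested members in brackets, the left panel gives the percent of members called higher (orange) or lower (blue, drawn to the left of 0), and the right panel the median log2 difference over all libraries (black bar), on vehicle (circle) and on high P (square). The lists of microglial receptors, plaque-associated effectors and class II presentation stand farthest to the right in both panels. The lysosomal list has a median of 0.23 over all libraries. The red blood cell list (4 members, none called) lies at 0.89 on vehicle and 0.06 on high P, and the striatal list at -0.03 and -1.37.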

How the data were processed

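Poly-A RNA of 25 mouse brains was sequenced with strand-specific libraries, per the labels' protocols. The authors deposited 1 table of FPKM values per gene, aligned with HISAT2 to mm10 per the submitters' processing notes. Neither notes nor labels name the read counter. FPKM times gene length gave whole reads for 100% of values (tolerance 0.01), so depth could be recovered, at 15518358 to 17698222 reads per library. Genes at 0.5 FPKM or more in at least 5 libraries were tested with limma 3.58.1 (R 4.3.3) on log2(FPKM + 0.5) with a mean per group and an intensity trend. The contrast was the mean of 3 5xFAD groups minus the mean of 2 wild-type groups, with Benjamini-Hochberg adjustment over 16450 genes. On simulated data of this size, 88% of 1.5-fold and 98% of 2-fold changes were recovered. The simulation changed only genes with many reads and held no spread shared between genes, so recovery in the real libraries may be lower. Genes were named by fixed rules: the largest separated rises, the largest falls, the smallest p-values under 1.5-fold, and the first and the most strongly called members of 43 lists. Other list members printed were chosen after their values were seen. Members and lists were chosen with earlier results of these data known. Some genes are not reported here. Promoter windows leave out chromosome 18. Alternatives changed scaling, pseudocount, filter, covariates, libraries and the test. Intervals and p-values cover the spread between libraries, and nothing in the labels links replicate numbers across groups.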

Additional observations from a re-analysis of the deposited data

Results flagged for a closer look

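Of 208 genes named in the text, 11 had 1 wild-type library far from the other 9 by Dixon's test on the gap to its neighbour. Chance flags about 1 in 20 groups, and no cause was tested. High values in single libraries on vehicle were Clec7a at 0.709 FPKM (others up to 0.276), Ccl4 at 0.918 (up to 0.457), Gbp2 at 2.43 (up to 1.60), Nlrp3 at 0.668 (up to 0.361) and Casp1 at 3.40 (up to 2.07). High values on high P were Csf1 at 5.19 FPKM (others up to 3.87), Phactr3 at 27.9 (up to 24.4), Crybb1 at 7.92 (up to 4.94) and Ide at 18.5 (up to 13.6). Low values on vehicle were Gusb at 1.95 FPKM (others from 2.71) and Scamp2 at 4.77 (from 5.68). The Clec7a, Csf1, Ccl4, Gusb, Scamp2, Phactr3, Gbp2 and Nlrp3 calls did not depend on any single library.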

How the results depend on the processing

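No called gene or count changed direction under the alternatives run, while some genes that were not called changed sign near 0 (with the striatal covariate C1ra was at -0.09 and Tfeb at -0.02). Of the rises (641) and falls (184), the rises were the steadier: 573 to 665 rises and 125 to 236 falls were called on leaving out 1 library at a time, and 245 rises and 4 falls were called in all settings. Falls numbered 307 after GC correction (765 rises), 501 with the GC slope as covariate (824), 481 with array weights (819), 319 with the striatal covariate (657), 278 in males alone, 86 in females alone (375 rises) and 52 without the 5 high-Ttr libraries, and the cause was not tested. On vehicle (510 called) array weights gave 811, females alone 215 and males alone 309, and leaving out 1 library gave 381 to 570. On high P (288) array weights gave 970, the GC slope 440, females alone 76, males alone 124, the set without high-Ttr libraries 131, and leaving out 1 library 209 to 317. The interaction (0) gave 9 calls with array weights, 1 without the high-Ttr libraries and 0 to 1 on leaving out 1 library. The test among 5xFAD groups (0) gave 1 with array weights, 133 in females alone, 55 in males alone, 1 without low P and 0 to 1 on leaving out 1 library. The replicate block gave 614 rises and 155 falls, and 745 and 265 with GC correction. Same-numbered libraries did not pair (median r = 0.021 over 50 pairs, 3 of 25 libraries correlating best with their own number), and numbers 1 to 3 were males in every group, so the block absorbs sex. Count models planned on the deposited table were not run because its values are FPKM. voom on recovered reads, chosen after seeing the data as were the striatal and Ttr covariates, gave 615 rises and 205 falls. The Ttr covariate gave 647 rises and 167 falls. Depth was similar across libraries, and genes near 0.5 FPKM are the least certain.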

Other observations

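Nuclear noncoding and splicing transcripts were lower in small steps. Of 34 tested, 3 fell and none rose: Tra2a (-0.30), a splicing regulator, Rsrp1 (-0.39) and Mir124a-1hg (-0.47), the host transcript of a neuronal microRNA, and the list lay at -0.28 on vehicle and 0.05 on high P. Rsrp1 was not called with the replicate block (adjusted p = 0.0592), without the high-Ttr libraries (0.0836) or on leaving out any 1 of 4 libraries, and Mir124a-1hg not with array weights (0.0664) or without low P (0.107). After GC correction 8 genes of the list fell. Calls in further lists follow. Mt1, a metallothionein, rose by 0.61 and Prdx4, a peroxiredoxin, by 0.43. In the sterol list Stard4, a cholesterol carrier, rose by 0.57 and Acat2, which makes acetoacetyl-CoA, by 0.35, and in the lipid transport list Mylip, a ubiquitin ligase, rose by 0.43. Of 20 cell cycle genes Mcm3 was the 1 called (5%, against 5.02% of all tested genes). Of 20 meningeal and fibroblast genes 19 were positive and Islr was called (5%). The Islr call was lost with 2 groups in place of 5 (adjusted p = 0.0632), with the striatal covariate (0.0608) and without the high-Ttr libraries (0.164).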
